A study of Mus musculus with 9 samples.

Results

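6 genes of the circadian clock's output were followed through the cell types of the mouse thyroid: Dbp, Tef and Hlf, the 3 PAR bZIP transcription factors, Nr1d1 and Nr1d2, which encode the nuclear receptors REV-ERBα and REV-ERBβ, and Ciart, which encodes a repressor of the clock. They are 6 of the 52636 genes in the table and were taken by symbol, and all 6 were found. They were chosen because earlier summaries of these samples had shown changes of clock genes in thyrocytes and a control pool that stood apart, so their values in the label Th1 are given as a description, without p-values, and nothing is read from calls there. The data are counts of unique molecular identifiers (UMIs, each standing for 1 captured RNA molecule) in 10186 single cells. Thyroids came from male C57BL/6 mice with no genetic change named in the labels, 10 to 12 weeks old by the design text and up to 14 weeks by the protocol. All mice received 1 intraperitoneal antibody injection and were studied at 7 days, and each sample was a pool of thyroids from 6 mice. Group RW (3 pools) received an antibody against ragweed at 40 mg/kg as control. Group aJ1aJ2 (3 pools) received antibodies against the Notch ligands Jag1 and Jag2 at 20 mg/kg each, and group aN1aN2 (3 pools) received antibodies against the receptors Notch1 at 5 mg/kg and Notch2 at 10 mg/kg. Blockade was given to the whole animal, so no cell type was targeted, and the labels do not give the hour at which thyroids were taken.

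The circadian clock is a feedback loop in which the transcription factors CLOCK and BMAL1 (gene Arntl) bind E-boxes and drive the Per and Cry genes, whose proteins then repress them. The output genes described here are driven by the same E-boxes. DBP, TEF and HLF bind D-boxes in their own targets, among them enzymes of detoxification, while the REV-ERB proteins repress Arntl, Npas2 and Nfil3 through ROR elements, so that Arntl mRNA peaks when Dbp and Nr1d1 mRNA are low. In most tissues of the mouse, Dbp mRNA varies over the day with a very wide amplitude, and Hlf and Tef vary less.

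In GENCODE M21 (GRCm38, the build the submitters' processing notes name), Dbp lies on chromosome 7 (45705088 to 45710203, plus strand), Tef on chromosome 15 (81802421 to 81826863, plus), Hlf on chromosome 11 (90336536 to 90390895, minus), Nr1d1 on chromosome 11 (98767932 to 98775333, minus), Nr1d2 on chromosome 14 (18204054 to 18239127, minus) and Ciart on chromosome 3 (95878503 to 95882251, minus). RefSeq promoter windows (GRCm38.p6, 250 bases before to 50 after each start) matched all 6 genes, with 7 windows because Tef has 2 starts. The E-box CACGTG, which reads the same on both strands, was found in the windows of Tef and Ciart, against 7.15% of all 32851 windows of that length. It stood once in each Tef window, 127 and 138 bases before the start, and 3 times in the Ciart window, 116, 58 and 44 bases before the start. These 3 promoters are shown because they hold the letters that the clock's activators bind. Each is the 250 bases before the start, 5′ to 3′ on the gene's strand, with the E-box in capitals.
Tef, chr15:81802423-81802672, plus strand: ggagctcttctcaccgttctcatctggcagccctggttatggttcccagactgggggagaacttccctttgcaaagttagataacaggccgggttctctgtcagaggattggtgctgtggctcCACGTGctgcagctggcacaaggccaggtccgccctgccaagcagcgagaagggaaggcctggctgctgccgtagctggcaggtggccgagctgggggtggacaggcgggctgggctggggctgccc
Tef, chr15:81811164-81811413, plus strand: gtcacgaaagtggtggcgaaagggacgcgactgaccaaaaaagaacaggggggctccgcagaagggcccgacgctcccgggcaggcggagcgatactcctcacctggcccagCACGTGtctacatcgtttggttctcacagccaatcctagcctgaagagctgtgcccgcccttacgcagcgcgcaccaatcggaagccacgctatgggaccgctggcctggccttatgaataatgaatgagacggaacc
Ciart, chr3:95882229-95882478, minus strand: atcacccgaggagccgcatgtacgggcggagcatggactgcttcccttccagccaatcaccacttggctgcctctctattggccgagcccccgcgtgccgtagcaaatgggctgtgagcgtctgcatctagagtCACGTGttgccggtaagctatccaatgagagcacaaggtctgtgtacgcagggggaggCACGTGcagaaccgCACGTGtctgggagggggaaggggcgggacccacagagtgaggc
The D-box letters TTATGTAA or TTACGTAA (1.06% of all windows) and the ROR element letters TAGGTCA or TGGGTCA (6.45% of all windows), searched on both strands, were in none of the 7 windows. These counts describe the letters in short windows only, since known clock elements of genes such as Dbp also lie inside the gene.

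Cells carry 1 of 16 labels deposited by the authors. Counts were summed for each pool and label, and levels are given as CPM, the UMIs of the gene per 1000000 UMIs of that sum. Labels are the authors' abbreviations, and markers were checked for those used here. The 5 thyrocyte markers (Tg and Pax8 among them) summed to 84625 to 115034 CPM in Th1, the 4 endothelial markers to 8276 to 11404 CPM in EC1, and the 3 fibroblast markers to 23431 to 35095 CPM in F. Pools held 3013324 to 11880793 UMIs, with the 3 aN1aN2 pools at the low end (3013324 to 4447972). The titles carry internal numbers in 3 ranges, called series A (RW 3 and aJ1aJ2 1), series B (RW 1 and RW 2 with aJ1aJ2 3 and aJ1aJ2 4), and finally series C (the 3 aN1aN2 pools). Receptor blockade and series C cannot be told apart. Of 10171 distinct cell barcodes, 15 occurred in more than 1 library.

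Among the control pools, RW 3 stood apart from RW 1 and RW 2 in these genes. In Th1, Dbp read 9.10 CPM in RW 1 and 9.34 in RW 2 but 86.7 in RW 3, so that RW 3 lay 9.47 times above the other control pools together (95% counting interval 7.14 to 12.8). Ratios are given for labels with at least 20 UMIs of the gene in the control pools together. In EC1 the ratio was 8.12 (6.23 to 10.7), in EC3 9.82 (6.20 to 16.1), in SM 5.52 (2.48 to 14.5) and in Th3 5.65 (2.20 to 16.2). In F, RW 3 held 48 Dbp UMIs and the other control pools 3 together, a ratio of 50.0 (16.1 to 251). These intervals cover counting error only, and PCR or pooling error is not in them. F, SM and Th3 reached 20 Dbp UMIs through RW 3 (16 UMIs in Th3, against 7 in the other control pools together), so the choice of labels favours a high RW 3 and their number supports nothing. In labels under that minimum RW 3 was not always the highest: Dbp read 19.6, 11.6 and 0 CPM in M and 25.8, 0 and 10.9 CPM in T1. It was the highest in others, among them EC2 (9.49, 0 and 121 CPM), EC4 (35.9, 0 and 54.6) and S (17.3, 72.5 and 149). The pool that stood apart was a reason for choosing these genes, so the ratios are a description.

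In the labels past the same minimum, Nr1d1 was above both other control pools in RW 3 in 5 labels, by 2.20 times (EC3) to 5.48 times (SM), with 2.46 times in Th1 (2.03 to 3.00). Tef did so in 4 labels, by 1.93 times (EC3) to 4.06 times (F). Nr1d2 was above both in 4 of 5 labels, with 1.66 times in Th1 (1.36 to 2.04), and in EC3 it lay between them. Hlf differed by 1.21 times in Th1 (0.905 to 1.61), by 2.93 times in EC1 (2.01 to 4.33) and by 3.71 times in EC3 (1.53 to 9.33), and in F it lay between RW 1 and RW 2. Among the 5 genes, the ratio was highest for Dbp and lowest for Hlf in Th1 and in F, while in EC1 and EC3 it was lowest for Nr1d2, at 2.04 and 1.05. In SM, RW 1 and RW 2 had few cells (5 in the smaller of them).

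**Figure D1:**
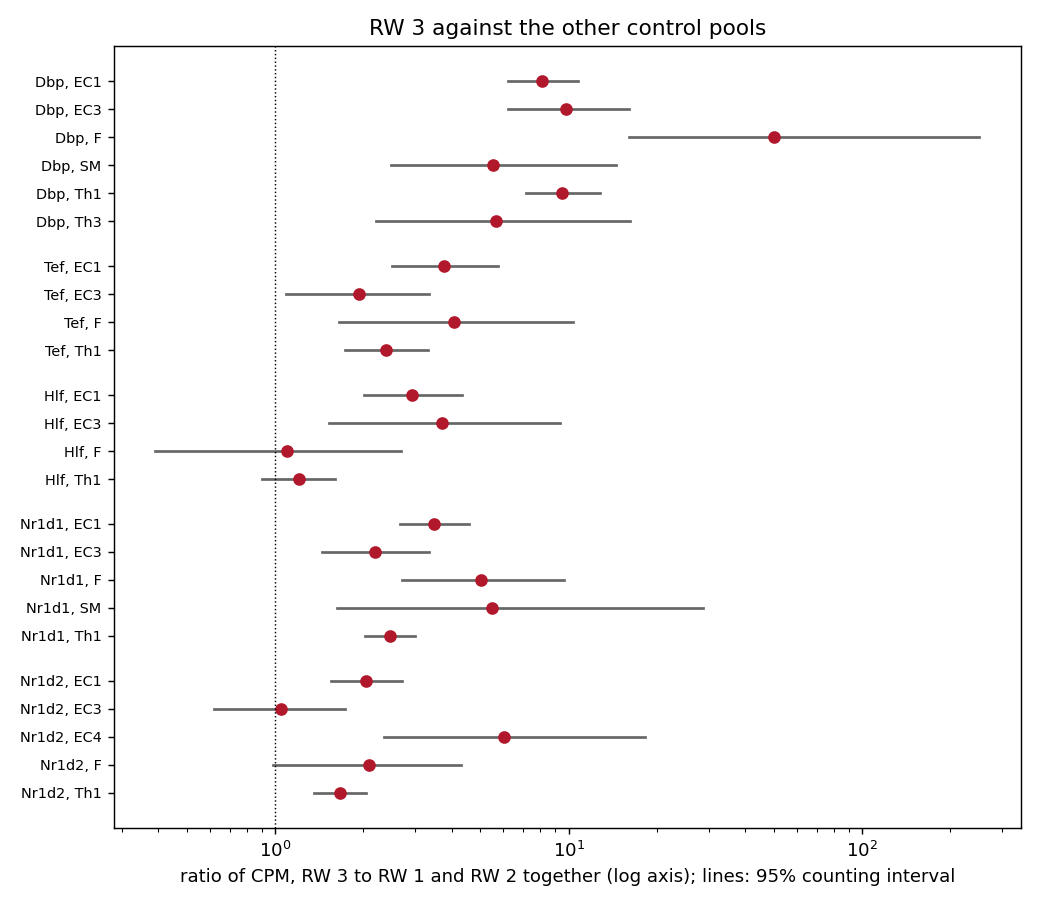
Ratio of CPM in RW 3 to RW 1 and RW 2 together (log axis) for 5 clock output genes, in each label with at least 20 UMIs in the control pools. Points are ratios and lines 95% counting intervals. Dbp lies between 5.52 and 50.0 in its 6 labels, while Hlf in Th1 and F and Nr1d2 in EC3 and F have intervals that reach 1.

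The pool that shares series A with RW 3, aJ1aJ2 1, also differed from its group. The difference was downwards in Th1 for the genes other than Dbp, and went in both directions in other labels. Dbp in Th1 read 158 CPM in aJ1aJ2 1, between 149 for aJ1aJ2 3 and 165 for aJ1aJ2 4. The other 4 genes were below both other aJ1aJ2 pools in Th1, Nr1d1 at 0.526 times their level (0.428 to 0.641), Tef at 0.625 (0.488 to 0.792), Nr1d2 at 0.652 (0.536 to 0.789) and Hlf at 0.664 (0.472 to 0.918). Hlf was below both in each of 7 labels, with intervals that reached 1 in EC2, EC3, EC4, F and SM. Dbp was below both in 5 labels, above both in 4 and between them in 2. Its interval lay above 1 in F (2.15, 1.72 to 2.68), S (3.03, 1.26 to 6.85, with 9 cells in the smallest pool) and Th3 (1.89, 1.04 to 3.39). Tef was below both in 5 labels and above both in 3, among them F at 1.73 (1.18 to 2.51). The ligand comparison had a different size in each series. Within series B, Dbp in Th1 was 16.8 times higher under ligand blockade (12.8 to 22.4), and within series A 1.82 times higher (1.57 to 2.11). In EC1 the ratios were 12.7 (9.82 to 16.6) in series B and 1.41 (1.17 to 1.70) in series A, and in F 33.7 (11.4 to 165) and 1.45 (1.03 to 2.05). Nr1d1 in Th1 was 4.41 times higher in series B (3.70 to 5.29), while in series A its ratio was 0.941 (0.756 to 1.17). Tef in Th1 was higher in each series, by 7.13 times in series B (5.40 to 9.55) and 1.86 times in series A (1.39 to 2.48).

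Over 19 pairs of a gene and a label with enough UMIs in both series, the ratio ran from 2.17 (Hlf in Th1) to 33.7 (Dbp in F) in series B and from 0.590 (Nr1d2 in EC4) to 2.97 (Nr1d1 in EC4) in series A. RW 3 is the only control pool of series A and stood apart when these genes were chosen, so the contrast between the series partly restates its levels. It also holds those of aJ1aJ2 1. For Hlf in Th1, RW 3 lay at 1.21 times the other control pools (0.905 to 1.61). There aJ1aJ2 1 lay at 0.664 times the other aJ1aJ2 pools (0.472 to 0.918). Series A has 1 pool a group, and the difference between the series was not tested. The hour of collection is not in the labels, and its part in these values was not tested.

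Dbp in Th1 did not overlap between groups. The RW pools were at 9.10, 9.34 and 86.7 CPM, the aJ1aJ2 pools at 158, 149 and 165, and the aN1aN2 pools at 124, 131 and 113. Every treated pool lay above RW 3, and the aJ1aJ2 pools lay above the aN1aN2 pools. The fitted log2 change was 1.98 (SE 0.51) under ligand blockade and 1.64 (SE 0.53) under receptor blockade, and without RW 3 these were 4.09 and 3.75.

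Tef in Th1 formed 3 steps. It was at 9.10, 11.3 and 23.1 CPM in RW, at 43.0, 70.9 and 63.7 in aJ1aJ2, and at 110, 107 and 109 in aN1aN2. The aN1aN2 pools differed among themselves by far less than the RW pools did. The log2 change was 1.94 (SE 0.26) under ligand blockade and 2.81 (SE 0.26) under receptor blockade, and aN1aN2 lay 0.87 (SE 0.23) above aJ1aJ2. Hlf, the third PAR bZIP gene, was at 15.8, 18.0 and 19.7 CPM in RW, at 23.5, 34.0 and 39.1 in aJ1aJ2, and at 25.7, 28.9 and 27.5 in aN1aN2. Its log2 changes were the smallest of the 5, 0.84 (SE 0.17) and 0.61 (SE 0.19).

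Nr1d1 in Th1 was at 27.3, 21.3 and 63.6 CPM in RW, at 59.9, 114 and 114 in aJ1aJ2, and at 114, 116 and 126 in aN1aN2. RW 3 overlapped with aJ1aJ2 1, and the aN1aN2 pools lay at or above the highest aJ1aJ2 pools. Nr1d2 was at 27.3, 29.4 and 46.2 CPM in RW, at 67.1, 102 and 105 in aJ1aJ2, and at 83.8, 83.7 and 76.8 in aN1aN2, with no treated pool as low as a control pool. In Th1, 3 of the 5 genes tested (Tef, Hlf, Nr1d2) were called under ligand blockade, where 0.612% of all genes were called, and 5 of 5 under receptor blockade, where 34.4% were called. Between the blockades, 1 of 5 was called (Tef), against 22.3% of all genes. Single pools moved these counts: under ligand blockade to 5 without RW 3 or aJ1aJ2 1 and to 0 without aJ1aJ2 3, under receptor blockade to 3 without RW 1 or aN1aN2 2, and between the blockades to 2 without RW 3 and to 0 without aN1aN2 1. Nothing is read from these counts, since the genes were chosen on this label, and called here means an adjusted p under 0.05 by edgeR (quasi-likelihood, Benjamini-Hochberg over all genes of the label).

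**Figure D2:**
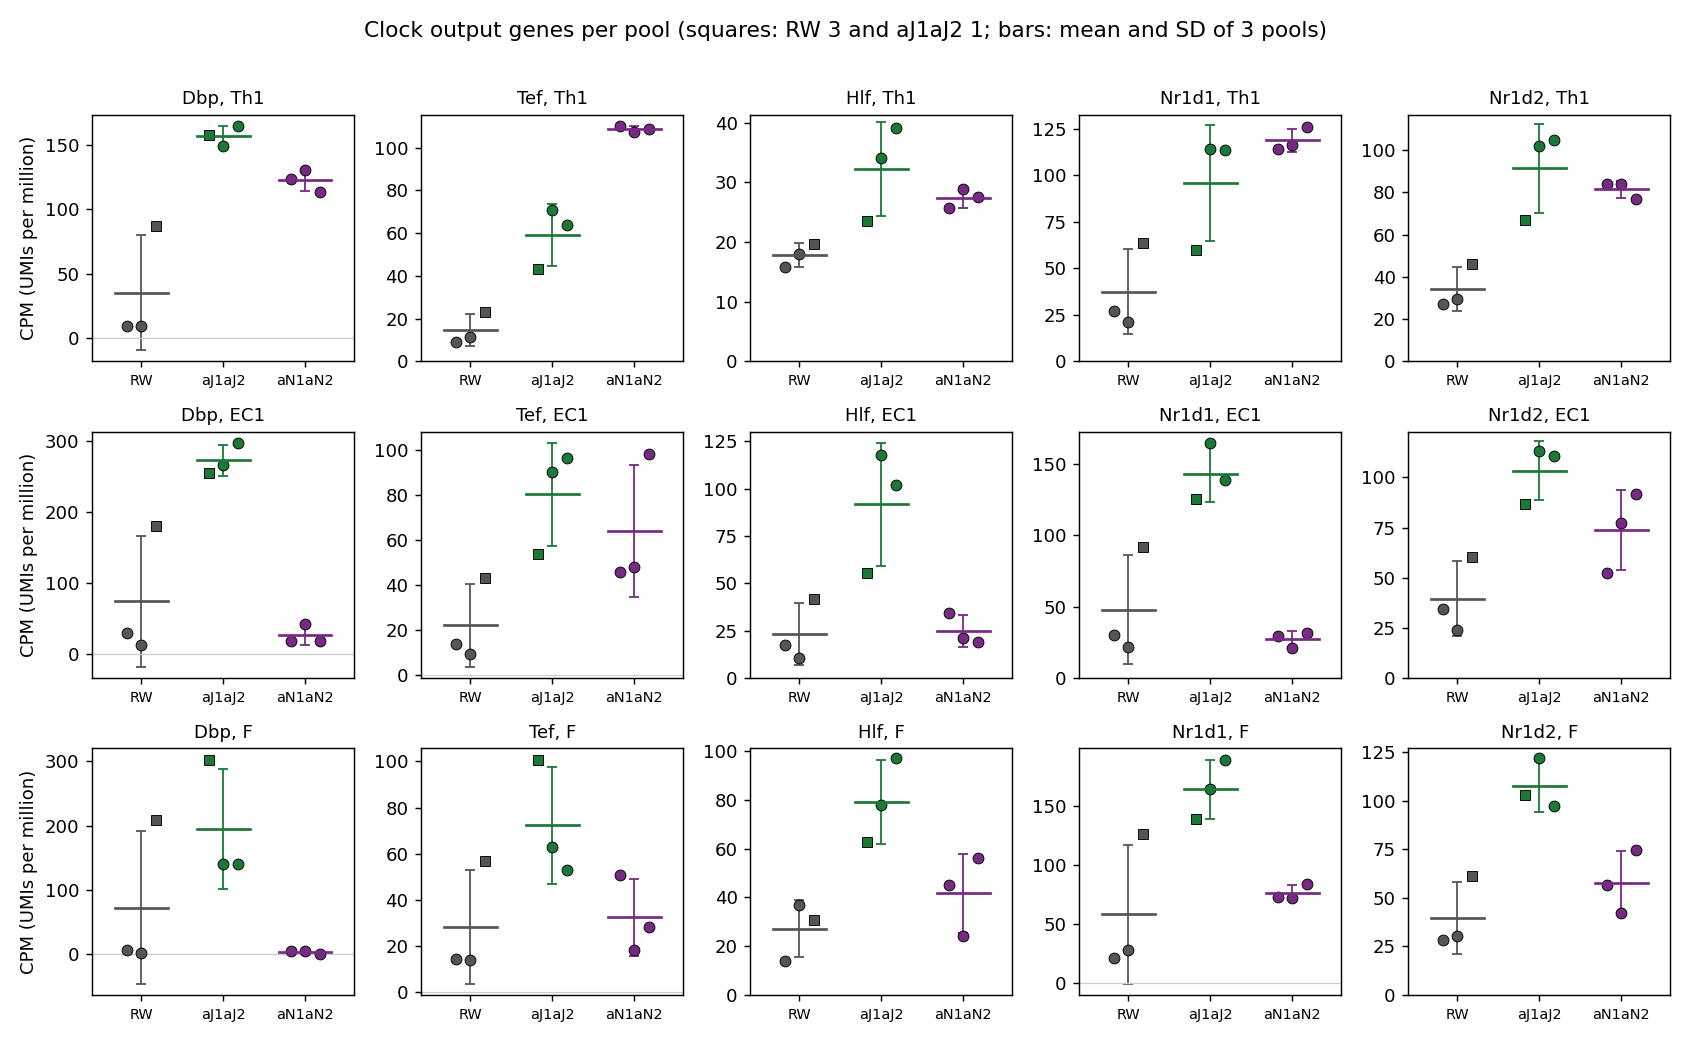
CPM of 5 clock output genes in each pool, by group, in Th1 (top), EC1 (middle) and F (bottom). Points are pools, squares mark RW 3 and aJ1aJ2 1 of series A, lines are group means and bars the SD of 3 pools. RW 3 is the highest control pool in every panel except Hlf in F, and the aN1aN2 pools are high for Dbp in Th1 and low in EC1 and F.

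Outside Th1, 26 pairs of a member and a label could be tested for ligand blockade, in 7 labels (Hlf, Nr1d2 and Tef fell below the count filter in some of them). Of these, 12 were called and all 12 were higher, where 0.677% of all gene and label pairs were called in either direction and 0.318% were called higher. The count is a description. In 12 of the 26 pairs, 5 of them called (Dbp and Nr1d1 in EC2, and Dbp, Tef and Nr1d1 in EC4), the gene reached the count filter only through the pools of the higher group, and Dbp in EC2 and EC4 was known before from these samples. Of the other 14 pairs, 7 were called. The cells differ from thyrocytes but come from the same pools of mice, so these calls do not stand on independent animals. In EC1, the main endothelial label, Hlf, Nr1d2, Tef and Nr1d1 were higher. In EC4, Dbp, Tef and Nr1d1 were higher, in EC2 Dbp and Nr1d1, and in F Hlf, Nr1d1 and Nr1d2. No member was called in EC3, Th3 or S.

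Hlf in EC1 was at 17.6, 10.5 and 41.7 CPM in RW and at 55.6, 118 and 102 in aJ1aJ2. The groups did not overlap, and the log2 change was 1.91 (SE 0.30, edgeR adjusted p = 0.00147). Nr1d2 in EC1 was at 34.5, 23.9 and 60.4 CPM in RW and at 86.6, 113 and 111 in aJ1aJ2 (log2 change 1.33, SE 0.23, edgeR adjusted p = 0.00361). Tef in EC1 was at 13.7, 8.97 and 43.1 CPM in RW and at 53.9, 90.1 and 96.7 in aJ1aJ2 (log2 change 1.77, SE 0.34, edgeR adjusted p = 0.00764). Nr1d1 in EC1 was at 30.6, 21.7 and 91.9 CPM in RW and at 126, 165 and 139 in aJ1aJ2 (log2 change 1.48, SE 0.30, edgeR adjusted p = 0.0114).

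Dbp in EC1 was at 30.6, 12.7 and 181 CPM in RW and at 255, 267 and 298 in aJ1aJ2, again without overlap. With RW 3 in the fit its log2 change was 1.75 (SE 0.45, edgeR adjusted p = 0.0525), which missed the threshold, and without RW 3 it was 3.61, a value given without a p because RW 3 was a reason for choosing the genes. In F, Nr1d2 was at 28.1, 30.1 and 61.0 CPM in RW and at 103, 122 and 97.0 in aJ1aJ2 (log2 change 1.53, SE 0.27, edgeR adjusted p = 0.0109). Dbp in F was at 7.03, 2.31 and 209 CPM in RW and at 302, 141 and 141 in aJ1aJ2, so that RW 3 lay inside the range of the treated pools.

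In EC2, where RW 3 and aJ1aJ2 1 had too few cells, Dbp had 168 UMIs over 2 aJ1aJ2 pools and 2 over 2 RW pools, a ratio of 32.5 (8.85 to 270). This ratio leaves out the control pool that stood apart. In its 15 cells RW 3 read 121 CPM (11 UMIs), against 9.49 in RW 1 and 0 in RW 2. In its 16 cells aJ1aJ2 1 read 145 CPM (11 UMIs). Dbp in EC4 was at 35.9, 0 and 54.6 CPM in RW (12 UMIs in all) and at 213, 237 and 258 in aJ1aJ2, with a log2 change of 2.86 (SE 0.41). Nr1d1 in EC2 was at 19.0 and 25.7 CPM in RW and at 155 and 163 in aJ1aJ2 (log2 change 2.88, SE 0.39). The pools left out for few cells were at 65.8 CPM (RW 3, 6 UMIs) and 105 CPM (aJ1aJ2 1, 8 UMIs). These values are given without a p for the reasons above.

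The count of calls for ligand blockade depended on single pools. Leaving out RW 3 raised it to 20, and leaving out RW 1, aJ1aJ2 3 or aJ1aJ2 4 lowered it to 6, 5 or 7. Of the 12, DESeq2 called 6 and gave no adjusted p for 2, Dbp and Nr1d1 in EC2. Among the pairs that did not depend on the higher group for the filter, the calls of Hlf and Nr1d2 in EC1 held in every alternative run. No run used series A alone, which has 1 pool a group. There the ratio of aJ1aJ2 to RW for Hlf in EC1 was 1.33 (0.872 to 1.99), against 7.73 (5.58 to 11.0) in series B. That of Nr1d2 in EC1 was 1.43 (1.02 to 1.98) in series A and 3.78 (2.98 to 4.85) in series B.

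Under receptor blockade, 24 pairs of a member and a label were tested outside Th1, and 2 were called. Both were higher (8.33% of the pairs), where 14.5% of all gene and label pairs were called in either direction and 7.41% called higher. The count is near that share, so nothing is read from it. The 2 were Tef in EC1 and Tef in Th3. Tef in EC1 was at 45.7, 48.1 and 98.1 CPM in aN1aN2, above all 3 RW pools (log2 change 1.33, SE 0.44, edgeR adjusted p = 0.0415). Its adjusted p passed 0.05 when RW 1, RW 2 or any aN1aN2 pool was left out (0.0578 to 0.292). Tef in Th3 was at 5.87, 20.6 and 25.4 CPM in RW and at 121, 121 and 127 in aN1aN2 (log2 change 3.12, SE 0.59), and it reached the count filter only through the aN1aN2 pools. Neither Tef call remained without RW 1, RW 2, aN1aN2 1 or aN1aN2 3. Other pairs were then called in some cases, among them Dbp in EC1, lower, without RW 1 or RW 2. The Th3 call was lost without any of RW 1, RW 2, RW 3, aJ1aJ2 4, aN1aN2 1 or aN1aN2 3. Th3 also holds cells of another kind, since the C cell markers Calca and Calcb summed to 636 to 65758 CPM there, and their part in this value was not tested.

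Dbp in EC1 was at 18.3, 42.7 and 19.0 CPM in aN1aN2, near RW 1 at 30.6 and RW 2 at 12.7 and below RW 3 at 181. Its log2 change was -1.62 (SE 0.76, edgeR adjusted p = 0.158), and without RW 3 it turned to 0.24. It was called lower without RW 1, without RW 2 and without the count filter. Nr1d1 in EC1 was at 29.7, 21.4 and 31.6 CPM in aN1aN2, with a log2 change of -0.92 (SE 0.49, edgeR adjusted p = 0.219). That change was 0.03 without RW 3, and it was called without the count filter. The runs that gave these calls keep RW 3, a reason for choosing the genes. Their p-values are therefore not given, and nothing is read from the calls. In F, Dbp had 2 UMIs over the 3 aN1aN2 pools (5.64, 6.03 and 0 CPM), like the 3 UMIs of RW 1 and RW 2 and unlike the 48 of RW 3. These sums were small: EC1 held 1128314 UMIs over the aN1aN2 pools against 5128268 over the RW pools.

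**Figure D3:**
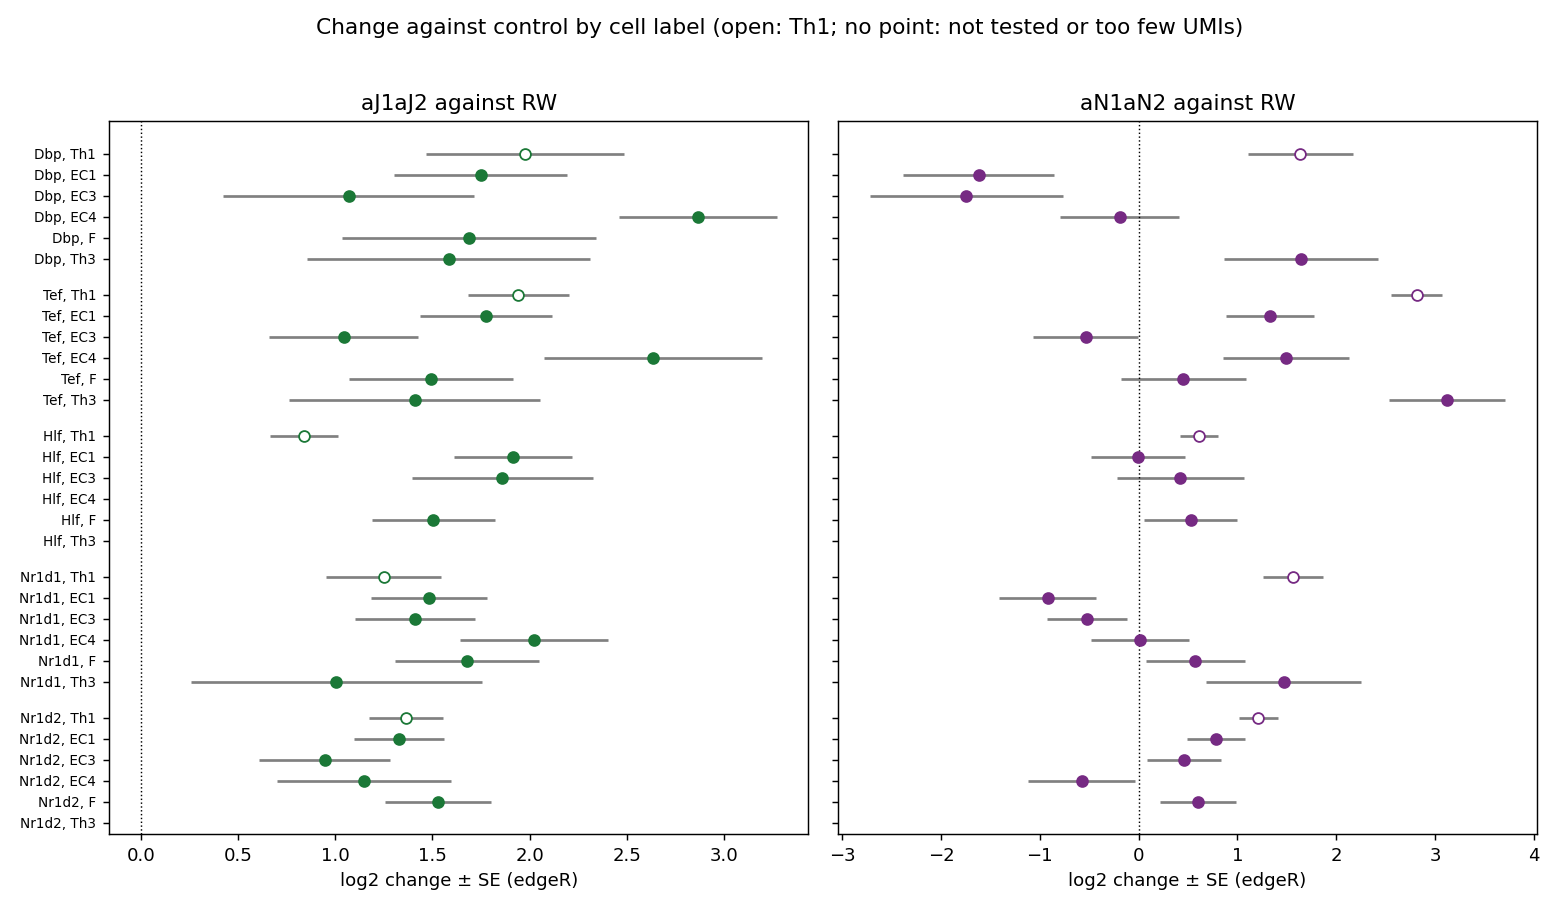
Log2 change against RW with its SE (edgeR) for 5 clock output genes in 6 labels, under ligand blockade (left) and receptor blockade (right). Open points are Th1, whose values are a description. All points on the left lie above 0, while on the right Dbp is at 1.64 in Th1 and at -1.62 in EC1.

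The change in other labels was set beside that in Th1 within pools, as the difference of log2 CPM between a label and Th1 of the same pool (limma). The genes were chosen on their Th1 changes, which enter every such difference, so the differences are a description and no p is given. Under receptor blockade, Dbp changed by 3.35 less in EC1 than in Th1 on the log2 scale (difference -3.35, SE 0.37) and Nr1d1 by 2.35 less (difference -2.35, SE 0.23). The differences were -1.32 (SE 0.35) for Tef, -0.39 (SE 0.42) for Hlf and -0.37 (SE 0.26) for Nr1d2. Without RW 3 that of Dbp was -3.36 and that of Nr1d1 -2.22.

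In F, Dbp differed from Th1 by -4.21 (SE 0.45), Tef by -2.62 (SE 0.41) and Nr1d1 by -1.04 (SE 0.29). The Dbp value rests on 2 UMIs in the aN1aN2 pools and on the prior count of 2 that was added, and it was -4.80 with a prior count of 0.5. In EC4 the differences were -2.30 (SE 0.59) for Dbp and -1.54 (SE 0.39) for Nr1d1. At an adjusted p under 0.05, limma called 3 members in EC1, where 8.74% of all genes were called, 3 in F, where 13.3% were, and 2 in EC4, where 7.75% were. Nothing is read from these counts.

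Under ligand blockade the Dbp differences from Th1 were -0.32 (SE 0.37) in EC1, -0.10 (SE 0.59) in EC4 and -0.15 (SE 0.45) in F. The difference of Hlf in EC1 was 1.22 (SE 0.42). Both comparisons share the RW pools. Markers of other cells were also higher in EC1 of the aN1aN2 pools: the 3 parathyroid markers summed to 228 to 334 CPM, against 47.1 to 92.3 in RW and 64.1 to 113 in aJ1aJ2, and the 5 thyrocyte markers to 1316 to 1930 CPM, against 694 to 966 in RW and 784 to 1237 in aJ1aJ2. Of 8 tested genes that respond to tissue dissociation, 2 (Hspa1a and Hspa1b) were lower in EC1 under receptor blockade and 3 (these and Fos) under ligand blockade, where 17.8% and 1.43% of all EC1 genes were called. The list summed to 969 to 1163 CPM in EC1 of aN1aN2, against 875 to 1113 in RW and 552 to 853 in aJ1aJ2. In F, 3 of 7 tested (Fos, Junb and Ier2) were higher under receptor blockade, where 19.8% of all genes were called, and the list summed to 1062 to 1330 CPM in aN1aN2, against 590 to 941 in RW and 757 to 1332 in aJ1aJ2. The median mitochondrial share over all cells of a pool was 3.42% to 4.52% in aN1aN2, 5.33% to 6.65% in RW and 6.47% to 9.24% in aJ1aJ2. Their part in the result was not tested.

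**Figure D4:**
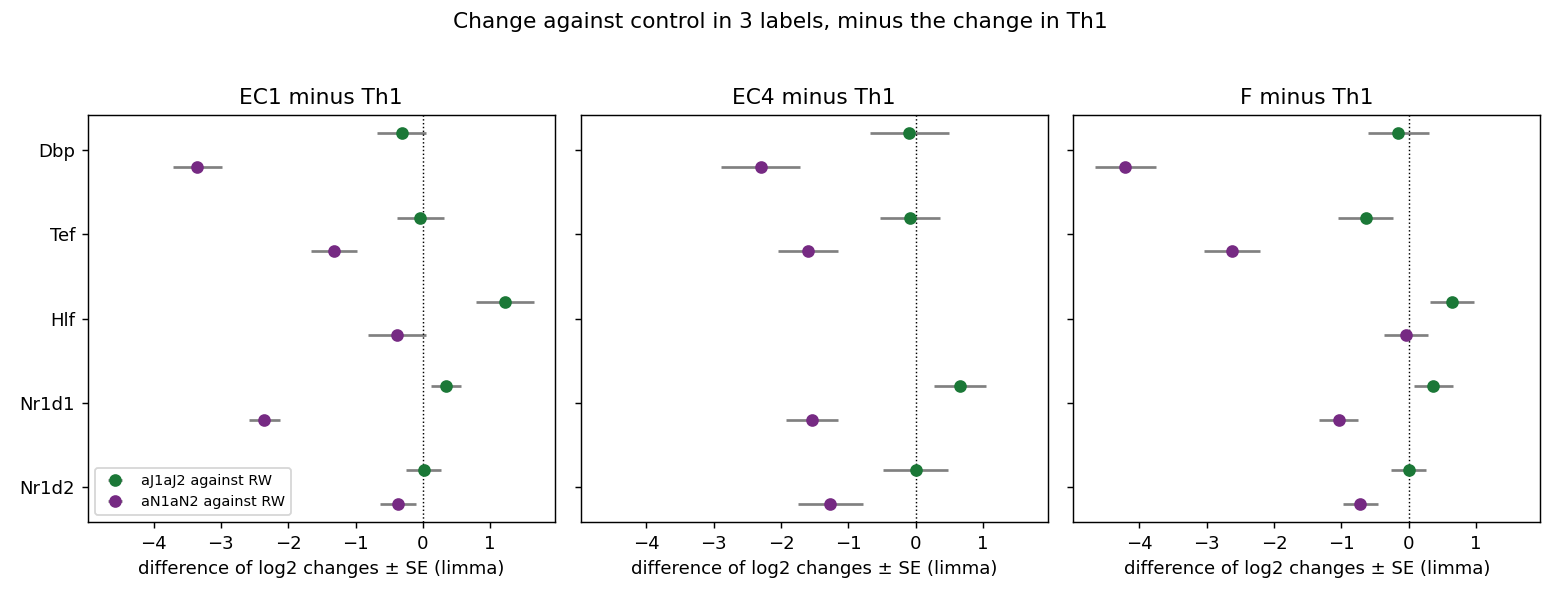
Change against RW in EC1, EC4 and F minus the change in Th1 (log2, with SE from limma) for 5 clock output genes, under ligand blockade (green) and receptor blockade (purple). The ligand values lie near 0 for most genes, whereas under receptor blockade Dbp is at -3.35, -2.30 and -4.21 in the 3 labels. Hlf was not tested in EC4.

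The blockades were then compared with each other, which leaves the control pools out of the difference. They still enter the spread that the groups share in the fit. All aN1aN2 pools and no aJ1aJ2 pool are in series C, so blockade and series cannot be told apart here. Outside Th1, 13 of 29 pairs of a member and a label were called and all 13 were lower in aN1aN2, where 9.77% of all gene and label pairs were called in either direction and 4.85% were called lower. In 13 of the 29 pairs, 7 of them called (Dbp in EC2, EC4 and F, Nr1d1 in EC2 and EC4, Nr1d2 in EC4 and Hlf in SM), the gene reached the count filter only through the aJ1aJ2 or other higher pools, so the count is a description. Of the other 16 pairs, 6 were called. Dbp was lower in EC1, EC2, EC4, F and SM, Nr1d1 in EC1, EC2, EC3 and EC4, Hlf in EC1 and SM, and Nr1d2 in EC4 and F. Tef was called in none of the 6 labels outside Th1 where it was tested, and in Th1 it was higher in aN1aN2. Dbp in EC1 differed by -3.37 (SE 0.69, edgeR adjusted p = 0.00163), Nr1d1 in EC1 by -2.40 (SE 0.44, edgeR adjusted p = 0.000641) and Hlf in EC1 by -1.92 (SE 0.43, edgeR adjusted p = 0.00362). In SM, the mural label, Dbp was at 261 and 304 CPM in 2 aJ1aJ2 pools and at 53.0, 141 and 33.8 in aN1aN2 (log2 difference -2.05, SE 0.46, edgeR adjusted p = 0.00358), a call that DESeq2 did not make (adjusted p = 0.305) and that was lost without aN1aN2 1 or aN1aN2 3 and without the count filter. In EC2, Dbp had no UMI in 3 aN1aN2 pools and 168 in 2 aJ1aJ2 pools, which makes it at least 15.0-fold lower (with the group total set to the 3 counts that 0 allows). Among the pairs that did not depend on the higher group for the filter, the calls of Nr1d1 and Hlf in EC1 held in every alternative run, and that of Dbp in EC1 in the 12 that gave it an adjusted p, since DESeq2 gave none. The count was 8 without aJ1aJ2 4 and 7 by DESeq2.

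Nr1d1 is an uncertain measurement, because its last 1075 bases overlap Thra, the gene of thyroid hormone receptor α, on the other strand, and whether the counting used strand is not given in the sources used here. Thra in Th1 was at 56.8, 53.4 and 45.1 CPM in RW, at 50.2, 60.3 and 58.9 in aJ1aJ2, and at 100, 88.0 and 87.1 in aN1aN2. It was lowest in RW 3 among the control pools, and under ligand blockade its log2 change was 0.13 (SE 0.13, edgeR adjusted p = 0.736), against 1.25 (SE 0.30) for Nr1d1. Under receptor blockade its log2 change in Th1 was 0.84 (SE 0.13, edgeR adjusted p = 0.000136). In EC1 Thra ranged from 71.0 to 101 CPM over the 9 pools. Dbp overlaps Sphk2 on the other strand over 737 bases at its 3′ end, and Sphk2 in Th1 ranged from 15.0 to 24.1 CPM, with RW 3 at 24.1 and RW 2 at 24.0. The other overlaps are Tef with Gm17597 (193 bases at the start) and Ciart with C920021L13Rik, which covers it whole.

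Ciart fell below the count filter in every label, with 111 UMIs in all cells against 5224 of Dbp, 3911 of Nr1d1, 3220 of Nr1d2, 2401 of Tef and 1672 of Hlf. In EC1 it had 9, 7 and 7 UMIs in RW, 2, 10 and 11 in aJ1aJ2, and 0, 2 and 0 in aN1aN2. The groups overlapped, and at this depth a difference was not detectable: the RW pools had 2.53 times the Ciart level of the aN1aN2 pools, with a counting interval of 0.625 to 22.1. In EC1 Ciart did not share the excess of RW 3 (ratio 0.559, 0.194 to 1.43). In Th1 it had 0 to 4 UMIs in a pool. Without the count filter edgeR called it in no label (adjusted p at least 0.0657), while DESeq2 gave it no adjusted p in any Th1 comparison, nor in EC2, EC4 or F. C920021L13Rik, on the other strand, had 10 to 60 UMIs in Th1, which is 5.11 to 9.74 CPM for RW pools and 24.6 to 30.9 for aN1aN2 pools.

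The differences in Dbp were also seen as the share of cells with at least 1 UMI. In Th1 this share was 17.8%, 14.3% and 77.0% in RW, 77.8%, 76.2% and 65.5% in aJ1aJ2, and 50.0%, 52.3% and 51.6% in aN1aN2. Cells were not equally deep, with a median of 22558 UMIs per Th1 cell in RW 3 and of 5737 in aN1aN2 2. Thinned to 3000 UMIs a cell, the expected shares were 2.32%, 2.28% and 22.5% in RW, 36.5%, 35.3% and 34.7% in aJ1aJ2, and 27.0%, 29.4% and 26.3% in aN1aN2, with 0 to 27 shallower cells left out of a pool. In EC1, where 19 to 109 shallower cells were left out of a pool, the unthinned shares were 15.7%, 7.69% and 52.8% in RW, 55.1%, 63.4% and 62.6% in aJ1aJ2, and 5.98%, 20.8% and 6.67% in aN1aN2. In EC1 the thinned shares were 7.60%, 3.04% and 35.5% in RW, 52.3%, 50.3% and 53.2% in aJ1aJ2, and 7.03%, 14.3% and 4.55% in aN1aN2. As a measure of free RNA, 3 of 997 cells labelled Eryth1 (0.301%) and 2 of 1092 labelled Eryth2 (0.183%) had a Dbp UMI, at a median of 1682 and 7944.5 UMIs a cell.

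The clock's core was read from a list of 21 genes: Per, Cry and Bhlhe40/41 repressors, the Arntl, Clock and Npas2 activators, ROR receptors and Nfil3, and kinases and ubiquitin ligases. In Th1, 16 of the 21 could be tested. Clock genes in Th1 were among the reasons for the choice of genes, so their counts and values there are a description. Under ligand blockade 2 of 16 were higher (Per3 and Cry2) and none was lower, where 0.612% of all genes were called. Leaving out RW 3 or aJ1aJ2 1 raised this count to 6 or 7, leaving out RW 2 or aJ1aJ2 4 lowered it to 1, and leaving out aJ1aJ2 3 to 0. The median log2 change of the 16 was 0.34, against 0.01 for all genes. Under receptor blockade 10 of 16 were higher and 1, Clock, was lower, with a median of 0.75 against 0.02, where 34.4% of all genes were called. Per3, a period gene with a strong rhythm in most tissues, was at 4.66, 8.67 and 14.1 CPM in RW, at 20.0, 44.1 and 45.7 in aJ1aJ2, and at 31.8, 39.4 and 41.3 in aN1aN2.

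Among the activators, which the REV-ERB proteins repress, Arntl and Npas2 were low where the output genes were high among the RW and aJ1aJ2 pools. Arntl in Th1 was at 27.1 and 34.7 CPM in RW 1 and RW 2, at 8.22 in RW 3, at 5.63, 5.16 and 4.81 in aJ1aJ2, and at 13.7, 16.0 and 19.5 in aN1aN2. Npas2 in Th1 was at 20.9 and 18.7 CPM in RW 1 and RW 2, at 6.50 in RW 3, at 7.68, 7.51 and 4.21 in aJ1aJ2, and at 24.1, 19.1 and 20.6 in aN1aN2. The aN1aN2 thyrocytes thus had high Dbp and Nr1d1 together with Npas2 as high as in RW 1 and RW 2. Clock in Th1 was at 79.3 and 78.0 CPM in RW 1 and RW 2, at 51.0 in RW 3, at 47.1, 50.0 and 59.5 in aJ1aJ2, and at 41.1, 53.0 and 41.3 in aN1aN2. Against RW, the log2 changes under ligand blockade were -2.04 (SE 0.45) for Arntl, -1.11 (SE 0.39) for Npas2 and -0.41 (SE 0.16) for Clock, and none of the 3 was called. From aJ1aJ2 to aN1aN2, the log2 difference was 1.61 (SE 0.51) for Arntl, 1.67 (SE 0.41) for Npas2 and -0.18 (SE 0.18) for Clock.

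In EC1, 4 of 16 tested core genes were higher under ligand blockade (Per2, Per3, Cry2 and Bhlhe41), where 1.43% of all genes were called, and 3 of 16 were called under receptor blockade, where 17.8% were. Under receptor blockade Per1 (log2 change 1.22, edgeR adjusted p = 0.000452) and Per2 (2.99, edgeR adjusted p = 4.49e-05) were higher and Btrc was lower. Per2 in EC1 was at 3.25, 4.49 and 4.00 CPM in RW and at 41.1, 34.7 and 19.0 in aN1aN2, without the excess in RW 3 that Dbp had. In F, 1 of 13 tested core genes was higher under ligand blockade (Per3) and Per1, Nfil3 and Rora were higher under receptor blockade, where 0.579% and 19.8% of all genes were called. Nfil3, a repressor that competes with DBP for D-boxes, was at 10.5, 13.9 and 4.36 CPM in F of RW and at 73.3, 84.5 and 46.7 in aN1aN2.

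**Figure D5:**
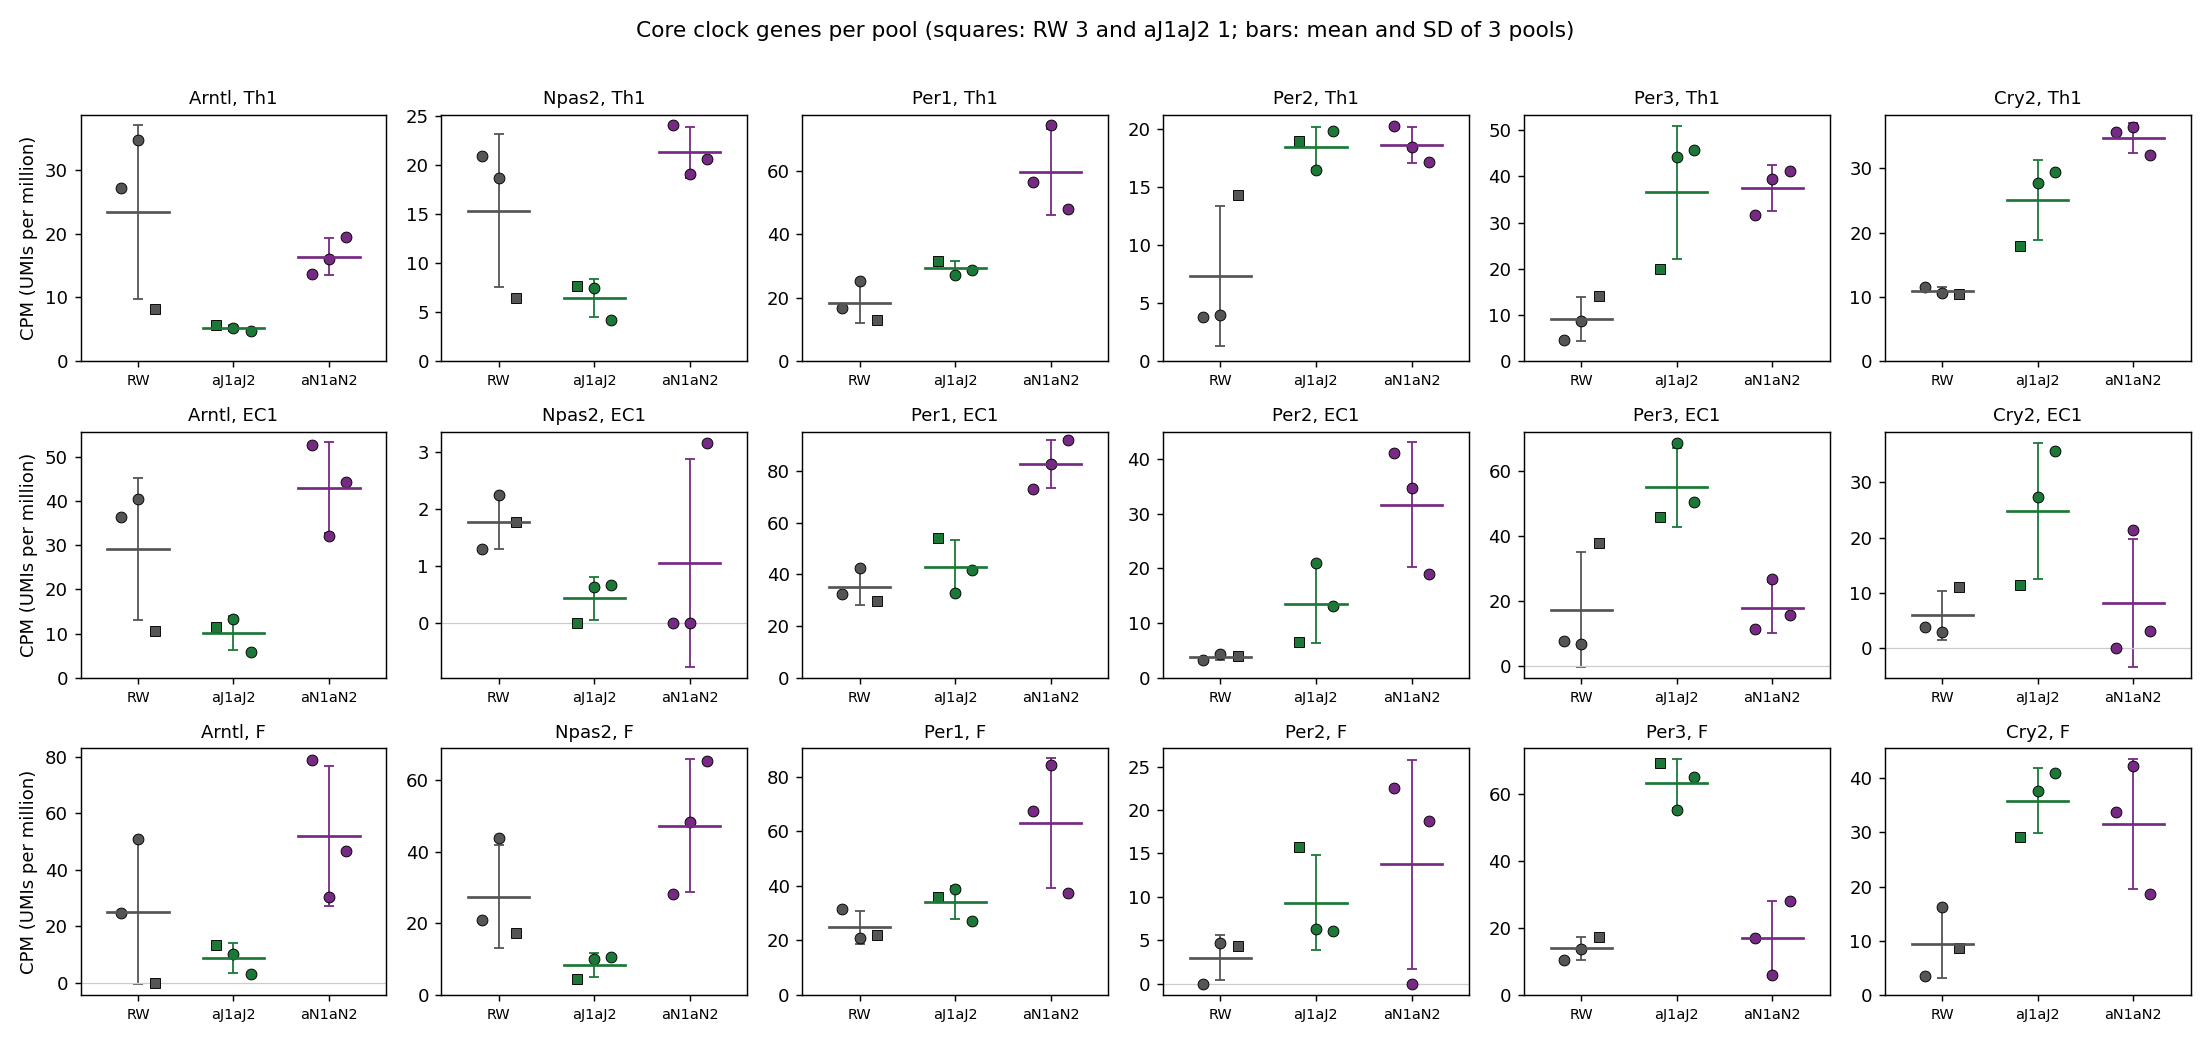
CPM of 6 core clock genes in each pool, by group, in Th1 (top), EC1 (middle) and F (bottom). Points are pools, squares mark RW 3 and aJ1aJ2 1, lines are means and bars the SD of 3 pools. RW 3 lies with the aJ1aJ2 pools for Arntl, at 8.22 CPM in Th1, while RW 1 and RW 2 are at 27.1 and 34.7.

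Few targets of the output factors were measurable. Of 7 PAR bZIP targets, 3 were tested in Th1, and under receptor blockade Por, the electron donor of cytochrome P450 enzymes, was higher (log2 change 0.74) and Pdxk, which activates vitamin B6, was lower (-0.58), while Alas1 was not called, where 34.4% of all genes were called. None of the 3 was called under ligand blockade, where 0.612% were. Of 7 REV-ERB targets, 5 were tested in Th1 (median log2 change -0.67 under ligand blockade, against 0.01 for all genes), and none was called there. Under receptor blockade Clock was lower.

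The genes most like Dbp over the 9 Th1 sums, by the mean absolute difference of centred log2 CPM among 10622 genes, were Per3 (0.59), Per2 (0.59), Bhlhe41 (0.69), Zfp784 (0.74) and Tspan4 (0.75). Those most like Tef were Maff (0.30), Sult1a1 (0.36), Per3 (0.40), Zbtb16 (0.42) and S100a5 (0.43). These 9 points share pools, depth and group, and the ranking is a description. Of the genes named, 3 near Dbp and 1 near Tef belong to the core clock list.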

How the data were processed

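Thyroids were profiled by droplet single-cell RNA sequencing. Per the submitters' processing notes, reads were processed with Cell Ranger on GRCm38, with no version given. The deposited values are raw UMI counts per gene and cell, not normalized by the authors, with cell labels deposited beside them. Whether counting used strand is not given in the sources used here. Gene IDs were named through GENCODE M21. How doublets were treated is not given in the sources used here, and no cells were removed.

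Counts were summed per pool and label, and sums of at least 20 cells were tested with edgeR 4.0.16 (quasi-likelihood, filterByExpr, TMM, Benjamini-Hochberg over all genes of a label, threshold 0.05, at least 2 pools a group) in R 4.3.3. Differences between labels used limma 3.58.1 on log2 CPM computed from the deposited counts with a prior count of 2. DESeq2 1.42.0 was an alternative, as were DESeq2 size factors, no count filter, the compared groups only, a series term, series B only, a replicate block, a prior count of 0.5 and leaving out each pool. Printed levels are plain CPM. The scripts were tested on simulated data. Intervals are exact 95% intervals and cover counting error only. The replicate is the pool of mice. The members and gene lists were chosen with earlier results of these data known. The rule for named genes takes all members, Thra, the list genes that passed, and the 5 genes most like Dbp and Tef. Some genes of these lists are not reported here. Sphk2, Gm17597 and C920021L13Rik were added from the annotation after values were seen. The replicate numbers of RW 3 and aJ1aJ2 1 were given in accession order.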

Additional observations from a re-analysis of the deposited data

Results flagged for a closer look

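For 8 pairs of a gene and a label, the change under receptor blockade minus that in Th1 of the same pools had a limma adjusted p under 0.05, which is why they are listed. The genes were chosen on their Th1 changes, which enter each difference, so the values are a description and not a test result. These were 3 of 5 members tested in EC1, 2 of 4 in EC4 and 3 of 5 in F, where 8.74%, 7.75% and 13.3% of all genes were called. In EC1 minus Th1 the log2 differences were -3.35 for Dbp, -2.35 for Nr1d1 and -1.32 for Tef. In EC4 minus Th1 they were -2.30 for Dbp and -1.54 for Nr1d1, and neither passed with a prior count of 0.5. In F minus Th1 they were -4.21 for Dbp, -2.62 for Tef and -1.04 for Nr1d1. All 3 aN1aN2 pools belong to series C, so receptor blockade and series cannot be told apart in any of them.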

How the results depend on the processing

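For ligand blockade in Th1, 3 members were called, 5 without the count filter and 5 in series B only, and 0 to 5 with a pool left out. The 2 core clock calls there became 4 with DESeq2, 9 without the filter, 1 with the compared groups only, 4 with a series term and 9 in series B only, and 0 to 7 with a pool left out. Outside Th1 the 12 calls became 6 with DESeq2 (which gave no adjusted p for 2 of them), 21 without the filter and 22 in series B only, and 5 to 20 with a pool left out. For receptor blockade in Th1, the 5 members called became 3 with DESeq2 (which gave no adjusted p for Dbp) and 3 to 5 with a pool left out, and the 11 core clock calls 8 to 11. Outside Th1 the 2 calls became 7 without the filter and 0 to 3 with a pool left out. Between the blockades in Th1, the 1 member called became 2 with the compared groups only and 0 to 2 with a pool left out, and the 5 core clock calls 3 to 6. Outside Th1 the 13 calls became 7 with DESeq2 (no adjusted p for 1 of them) and 8 to 17 with a pool left out. The 2 EC4 differences under receptor blockade became 0 with a prior count of 0.5 and 0 to 2 with a pool left out. The cause was not tested.

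In EC1 under receptor blockade, 3 genes changed sign. With a pool left out, Dbp (-1.62) ran from -2.13 to 0.24, the highest without RW 3, and Nr1d1 (-0.92) from -1.23 to 0.032, the highest without RW 3. Hlf (-0.0032) ran from -0.34 to 0.81 and was 0.048 with DESeq2, 0.0083 with the compared groups only, 0.81 without RW 3, 0.0010 without aJ1aJ2 3, 0.0058 without aJ1aJ2 4, 0.11 without aN1aN2 2 and 0.13 without aN1aN2 3. Under receptor blockade the sign also changed across alternatives for 7 pairs that were not called: Dbp in F (-4.38 to 0.068), EC3 (-2.28 to 0.11) and EC4 (-0.65 to 0.39), Tef in F (-0.15 to 1.23) and EC3 (-1.17 to 0.011), and Nr1d1 (-0.35 to 0.51) and Nr1d2 (-0.98 to 0.90) in EC4. RW and aN1aN2 share replicate numbers 1 and 2. Deviations from the group mean in Th1 correlated at 0.0244 and -0.0134 for the same number. For unlike numbers they correlated at 0.104 and 0.00809. These correlations cannot show whether the pools were paired. With the replicate block, which leaves RW 3 no partner, Dbp was 0.40 and Hlf 0.95, members called in Th1 were 5, core clock calls 12, and calls outside Th1 4 in place of 2. EC1 held 1128314 UMIs over the aN1aN2 pools against 5128268 over the RW pools, and the part of this depth in the results was not tested.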
